A study of Zea mays with 46 samples.

Results

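MYB40 is a maize factor named for the MYB family, and its binding was recorded by DAP-seq. DAP-seq mixes a Halo-tagged protein, produced outside the plant, with purified DNA fragments and sequences those it holds, so chromatin and partner proteins play no part. All 7328 peaks of the deposited MYB40 list were taken as members, out of 1058997 peaks in the 16 lists of the series. Each peak carries 1 deposited score, and the peaks were divided by it into 4 bins at the quartiles, with bin 1 the lowest. Every score equal to a boundary was kept in the lower bin.

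The maize series has 46 samples of DAP-seq, P1 ChIP-seq and RNA-seq. The MYB40 sample is 1 DAP-seq sample on methylated DNA, from leaves of seedlings 2 weeks old of the hybrid B73 x A632 F1, with reads of 150 and 50 nt in its title. The growth text names other hybrids and pooled seedlings; the sample fields were followed. P1, MYB53 and MYB100 were assayed by DAP-seq on demethylated DNA of the same hybrid and tissue, with reads of 50 nt. The 2 ChIP-seq lists used a P1 antibody, 1 in protoplasts (leaf cells freed of their walls) made from hybrid seedlings 12 days old, and 1 in hybrid silk, with input from P1-ww silk in the A619 inbred as the other ChIP sample of that tissue. The titles of the protoplast ChIP-seq pair contradict their treatment fields, and the treatment fields were followed. HSF24 and GBP20 are the other lists on methylated DNA, HSF24 with reads of 150 and 50 nt and GBP20 with reads of 150 nt. The 8 remaining DAP lists, of CPP8, DOF3, DOF23, EREB7, EREB122, NLP14, THX39 and WRKY38, are on demethylated DNA with reads of 50 nt. All of these lists are from seedlings 2 weeks old. MYB40 was given on methylated DNA alone and the other MYB factors on demethylated DNA alone, so factor, DNA state and read length cannot be told apart in any comparison between them. Only 1 list stands for each sample, so there is no replicate spread. Every interval below is a 95% interval for counting error alone, and neighbouring peaks are not independent.

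Plant MYB factors of the class to which P1 belongs carry paired MYB repeats that read short motifs rich in A and C, and they control the genes of flavonoid, lignin and other phenolic pathways. P1 itself activates the pathway to the red phlobaphene pigments of the kernel's outer layer and to the flavones of silk. Cytosine methylation is dense over the repeats that fill most of the maize genome and sparse near active genes, and it hinders the binding of many factors to naked DNA. A list on methylated DNA thus describes sites that a factor reached with the plant's own methylation in place. It does not say whether a given site carried methylation.

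The scores were low and tightly packed, with a long upper tail. They ran from 9 to 127 with a median of 13, and 5717 of the 7328 were whole numbers. The value 11 alone was held by 1367 peaks, and 12 by 1095. The boundaries fell at 11, 13 and 15, and the next scores above them were 11.1, 13.1 and 15.1. At the upper boundary, chr1:1561146-1561345 scored 15 and lay on P1 and MYB53, and chr1:40972671-40972870 scored 15.1 and lay on P1, MYB53 and EREB122. At the middle one, chr2:201771127-201771326 scored 13.1 and lay on P1, MYB53, MYB100 and HSF24, and chr1:182408-182607 scored 13 and lay on DOF3, DOF23 and HSF24 but not on P1. At the lowest, chr1:41366847-41367046 scored 11.1 and chr1:49950-50149 scored 11, both on P1. Because of the ties the bins held 1880, 2442, 1436 and 1570 peaks from the lowest score to the highest. Bin 1, the bottom bin, had scores of 9 to 11, and bin 4, the top bin, had scores of 15.1 to 127 with a median of 17.9. Only 458 peaks reached 20, 58 reached 30 and 9 reached 50. All peaks were 200 bases wide, so width could not vary with score.

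The more highly MYB40 scored a site, the more often P1, MYB53 and MYB100 had a peak at the same place. P1, the pigment regulator, shared 5806 of the 7328 sites, or 79.2% (interval 78.3 to 80.1). From bin 1 to bin 4 its share was 68.5%, 76.9%, 82.9% and 92.3%. The top bin thus stood at 92.3% and the bottom bin at 68.5%, a difference of 23.8 points (interval 21.3 to 26.2). MYB53 shared 44.1% of all MYB40 sites (interval 42.9 to 45.2), with 37.0%, 40.3%, 44.99% and 57.5% over the bins. Its share in the top bin was 20.4 points above that in the bottom bin (interval 17.1 to 23.7). MYB100, with the shortest list of the 3 other MYB factors at 10181 peaks, shared 9.51% (interval 8.86 to 10.2). Its bins stood at 5.21%, 7.90%, 9.40% and 17.3%, with the top bin 12.1 points above the bottom bin (interval 9.95 to 14.2).

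No difference of that size between top and bottom bin was seen for the 10 lists of other factors. Their shares in the top bin lay between 1.19 points below and 1.11 points above those in the bottom bin, and all 10 intervals of that difference held 0. EREB7, GBP20 and NLP14 overlapped only 2, 10 and 24 MYB40 peaks in all, too few to show a course over the bins. From bin 1 to bin 4 EREB122 stood at 3.99%, 3.48%, 2.99% and 2.80%, and WRKY38 at 12.1%, 12.4%, 15.4% and 11.5%. DOF23, of the zinc-finger DOF family, overlapped 28.7% of the top bin and 29.1% of the bottom bin. HSF24, of the heat shock factor family and also on methylated DNA, overlapped 23.2% of the top bin and 22.1% of the bottom bin. CPP8 overlapped 24.5% of the top bin and 24.3% of the bottom bin. The widest interval of these 10 differences, that of DOF23, ran from -3.46 to 2.61 points, and the differences seen for P1, MYB53 and MYB100 lay outside it.

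**Figure D1:**
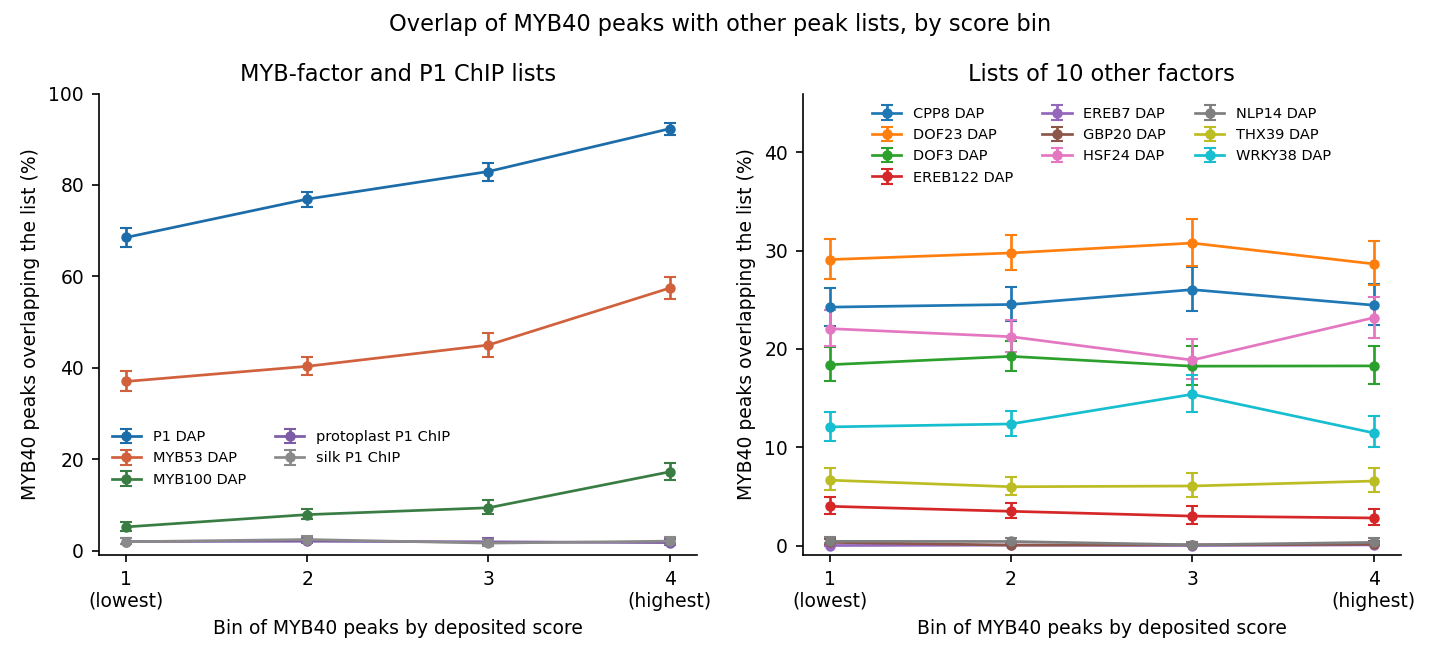
Share of MYB40 peaks (%, y axis) overlapping each list by at least 1 base, for the 4 score bins (x axis, low to high). Points are shares, bars are 95% Wilson intervals. The lines of P1, MYB53 and MYB100 climb to 92.3%, 57.5% and 17.3% in bin 4, while the ChIP lists stay near 2% and the 10 other factors show no such climb.

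Finer score classes followed the same course above a flat start. Peaks scoring 9 to under 11 and those scoring 11 to under 12 hardly differed in their share with P1, at 68.8% of 513 and 69.6% of 1632. The share was 79.8% at 13 to under 14, 89.9% at 16 to under 18 and 96.1% at 20 to under 25. At 30 and above, 57 of 58 peaks lay on a P1 peak (98.3%, interval 90.9 to 99.7). MYB53 had 82.8% of those 58 (interval 71.1 to 90.4) and MYB100 had 50.0% (interval 37.5 to 62.5). In the lowest class MYB53 had 38.6% and MYB100 had 5.07%. For P1 the curve flattened near its ceiling, whereas the MYB100 share was highest in the last, smallest class.

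**Figure D2:**
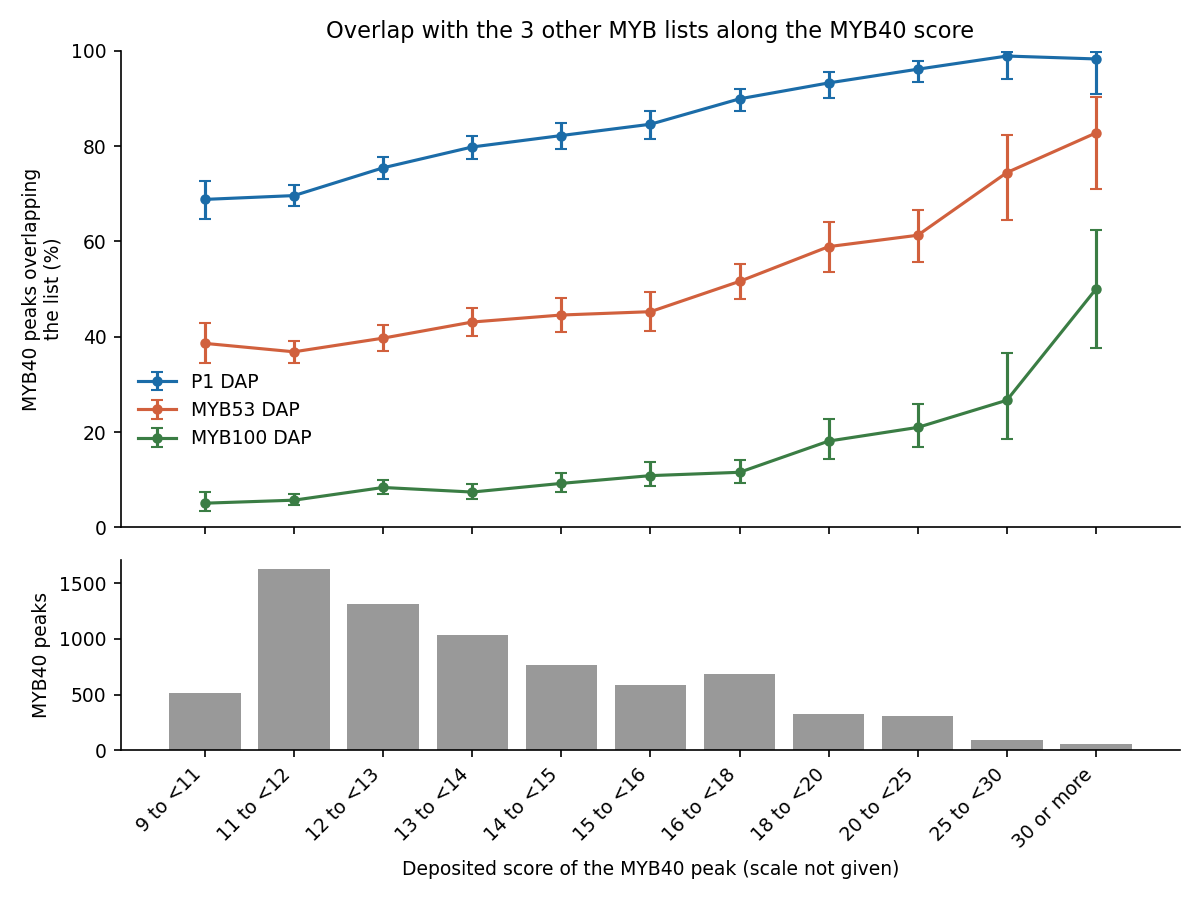
Upper panel: share of MYB40 peaks (%, y axis) overlapping the P1, MYB53 and MYB100 lists by class of the deposited score (x axis), with 95% Wilson intervals as bars. Lower panel: number of MYB40 peaks in each class; P1 reaches 98.3% and MYB100 50.0% in the class of 58 peaks scoring 30 or more.

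Lists of like extent were shared to very different degrees. P1 peaks covered 0.9002% of the chromosome span, taken up to the last peak of any list, MYB53 peaks 0.959% and HSF24 peaks 1.01%, yet they marked 79.2%, 44.1% and 21.4% of MYB40 peaks. Among the 10 other factors, the share of peaks on the P1 list ran from 1.27% for EREB7 to 15.5% for THX39. HSF24 peaks, on methylated DNA like MYB40, lay on P1 peaks in 11.8% of cases, and the MYB40 share was 67.5 points higher (interval 66.5 to 68.4). GBP20 peaks did so in 3.83%, and the MYB40 share was 75.4 points higher (interval 74.2 to 76.5). The MYB40 share was also above those of the other MYB factors, since 35.2% of MYB53 peaks and 52.1% of MYB100 peaks lay on the P1 list. These lists differ in length, with 7328 peaks for MYB40, 106272 for MYB53 and 10181 for MYB100, and their thresholds are not stated. P1 overlap was lower at lower MYB40 scores, and whether list length bears on this order was not tested. With MYB53 the order was different: 44.1% of MYB40 peaks lay on its list but 93.3% of MYB100 peaks did so.

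Seen from the other side, MYB40 peaks lay on a small part of the sites of the other MYB factors. The MYB40 list holds only 7328 peaks, and that length limits how large these shares can be. Of the 84227 P1 peaks, 6.90% overlapped a MYB40 peak, as did 3.79% of the 106272 MYB53 peaks and 7.46% of the MYB100 peaks. Among P1 peaks the share with MYB40 was 14.0% (interval 13.02 to 14.97) where MYB53 and MYB100 were present too, 8.62% with MYB53 alone and 5.37% (interval 5.18 to 5.56) with neither. With MYB100 alone it was also 14.0%, on only 93 P1 peaks (interval 8.355 to 22.46). P1 peaks with a MYB40 peak carried MYB53 in 51.2% of cases and those without it in 36.4%, a difference of 14.8 points (interval 13.5 to 16.1).

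The MYB lists also met MYB40 at closer base positions than the HSF24, DOF23 and CPP8 lists did. Where peaks overlapped, the distance from the MYB40 midpoint to the nearest P1 midpoint had a median of 23.5 bases (quartiles 2 and 59). It was 26 bases for MYB53 (quartiles 4 and 70) and 25 for MYB100 (quartiles 5 and 63). For HSF24 the median was 88 bases, for DOF23 88.5 and for CPP8 89, with 8.29% to 12.1% of HSF24 pairs in each step of 20 bases. A midpoint within 25 bases was found for 51.9% of P1 pairs (interval 50.6 to 53.2) and 50.2% of MYB100 pairs, but for 14.7% of HSF24 pairs (interval up to 16.5). By score the P1 closeness hardly moved. In the top bin 50.0% of P1 pairs lay within 25 bases (interval 47.4 to 52.5), and in the bottom bin 52.6% (interval 49.8 to 55.3). For MYB53 the share within 25 bases was 45.98%, 49.75%, 49.85% and 50.55% from bin 1 to bin 4, with a median distance of 25 bases in the top bin and 30.5 in the bottom bin; the intervals of top bin (47.3 to 53.8) and bottom bin (42.3 to 49.7) overlapped. For MYB100 it was 50.6% in the top bin and 53.1% in the bottom bin, on 271 and 98 pairs.

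**Figure D3:**
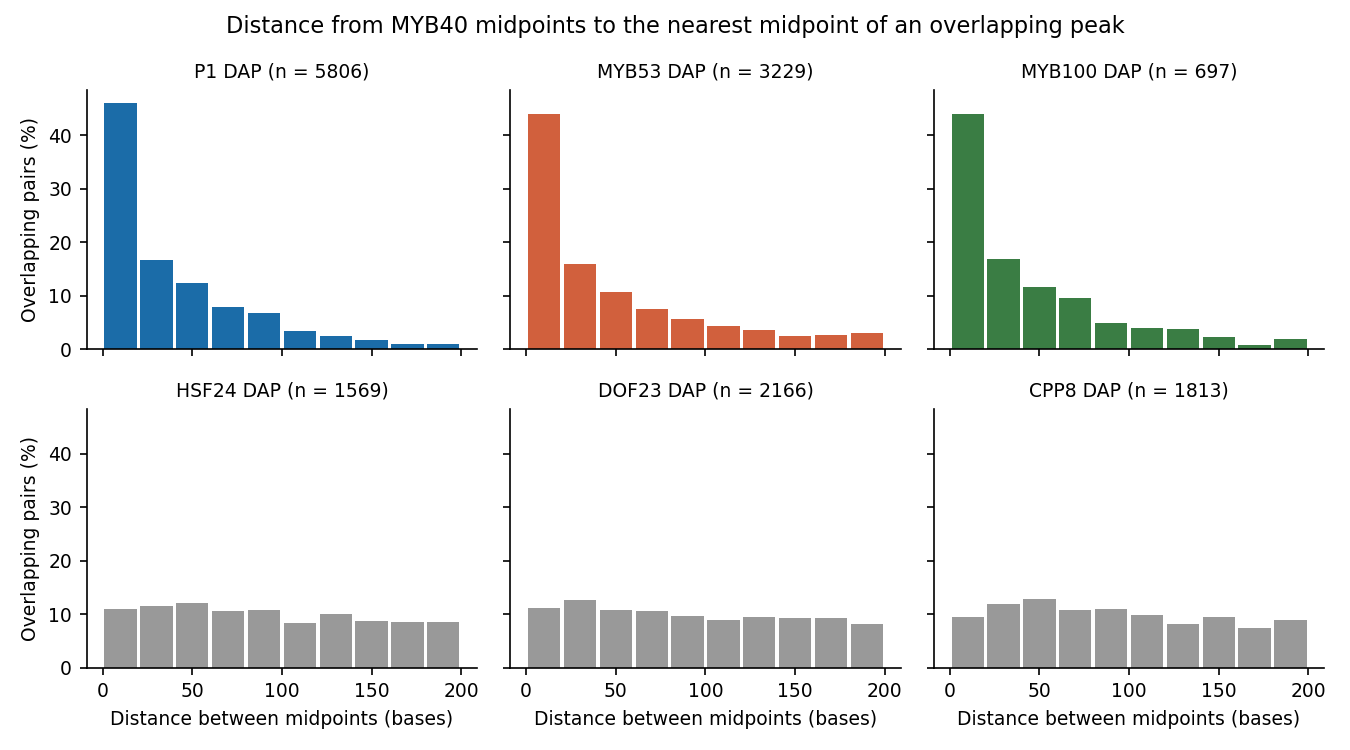
Distance in bases (x axis, in steps of 20) between the midpoint of a MYB40 peak and the nearest midpoint of an overlapping peak, as a percentage of pairs (y axis). Pairs with P1, MYB53 and MYB100 gather under 20 bases and pairs with HSF24, DOF23 and CPP8 do not; 29 P1 pairs at 200 bases or more are not drawn.

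P1 and MYB53 without MYB100 marked 2283 MYB40 peaks, P1 alone 2845, and P1 with both of the others 665. The last group had a median score of 14 and held the peak of the highest score, 127. It made up 16.7% of the top bin and 4.89% of the bottom bin. P1 alone made up 36.5%, 40.8%, 40.8% and 36.6% from bin 1 to bin 4, so the end bins were alike and the middle ones higher. Peaks on none of the 3 MYB lists numbered 1239, with a median score of 12. They were 5.48% of the top bin and 26.3% of the bottom bin, and none of them scored above 28. MYB100 rarely met MYB40 without P1, in 17 peaks with MYB53 and in 2 peaks alone. It was as rare without MYB53, in 13 peaks with P1 and in the same 2 alone. Of all MYB40 peaks, 79.2% lay on P1 and 44.1% on MYB53. Across the whole MYB100 list, 93.3% of peaks lay on MYB53 and 52.1% on P1. The rarity of MYB100 without MYB53 was thus not particular to MYB40 sites.

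The P1 and MYB53 gradients were also present at sites on and off the other's list. Among MYB40 peaks off the MYB53 list, P1 still marked 87.1% of the top bin and 58.2% of the bottom bin, a difference of 28.9 points (interval 25.02 to 32.6). Among those on the MYB53 list P1 marked 96.1% of the top bin and 86.1% of the bottom bin (10.1 points, interval 7.26 to 13.03). Among peaks on the P1 list, MYB53 marked 59.8% of the top bin and 46.5% of the bottom bin (13.3 points, interval 9.59 to 17.0). Off the P1 list it marked 35 of 121 peaks of the top bin and 97 of 592 of the bottom bin (12.5 points, interval 4.54 to 21.6). MYB100 on P1 sites marked 18.6% of the top bin and 7.30% of the bottom bin (11.3 points, interval 8.80 to 13.7). Off P1 it marked 2 of 121 peaks of the top bin and 4 of 592 of the bottom bin, too few to compare. EREB122 ran the other way on P1 sites, with 2.83% of the top bin and 4.50% of the bottom bin (-1.67 points, interval -3.15 to -0.266).

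A total of 1522 MYB40 peaks had no P1 peak on them, and they were commoner at low scores. They numbered 121 in the top bin and 592 in the bottom bin. Of the 458 peaks with a score of 20 or more only 14 were off P1, and the highest score among them was 30. The nearest P1 midpoint was at a median of 2004 bases, and within 1000 bases for 33.4%. The share on the HSF24 list was 21.6% for peaks on P1 and 20.6% for peaks off it, a difference whose interval held 0 (on minus off, -1.36 to 3.22 points). CPP8, in contrast, marked 23.8% of peaks on P1 and 28.3% of peaks off P1 (on minus off -4.43 points, interval -6.99 to -1.96).

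The P1 ChIP lists told MYB40 bins apart in neither tissue. In protoplasts 145 MYB40 peaks overlapped a ChIP peak (1.98%, interval 1.68 to 2.32). The share was 1.78% in the top bin and 2.02% in the bottom bin, a difference of -0.24 points (interval -1.16 to 0.716). In silk 154 peaks overlapped a ChIP peak (2.10%, interval 1.80 to 2.46), with 2.10% of the top bin and 1.97% of the bottom bin (0.13 points, interval -0.814 to 1.13). A difference within about 1 point was thus not detectable with these numbers of sites. Only 6 MYB40 peaks lay on both ChIP lists, and all 6 were on the P1 DAP list, which marks 79.2% of all MYB40 peaks.

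ChIP overlap was then set apart for MYB40 sites on and off the P1 DAP list; the difference between the tissues was not tested. In protoplasts 2.33% of sites on P1 and 0.657% of sites off P1 had a ChIP peak, 1.67 points apart (interval 1.01 to 2.18). In silk both stood at 2.10% (difference interval -0.917 to 0.729 points). Among the P1 DAP peaks themselves, those with a MYB40 peak had a protoplast ChIP peak in 2.41% of cases and those without it in 2.35% (difference interval -0.326 to 0.493 points). For silk these shares were 2.17% and 2.51% (difference interval -0.704 to 0.0783 points). P1 DAP peaks that MYB40 shared were therefore not found in ChIP at a detectably different rate. In protoplasts the MYB40 share of 1.98% was above the 0.203% to 1.67% of the 10 other factors. The highest of these, WRKY38, had an interval of 1.59 to 1.75 that overlapped the MYB40 interval of 1.68 to 2.32. That overlap does not settle whether the shares differ, since no interval was taken for their difference. MYB40 minus MYB100 was 0.083 points (interval -0.326 to 0.508), and MYB40 minus MYB53 was 0.777 points (interval 0.475 to 1.13). In silk the MYB40 share of 2.10% lay within the 1.85% to 3.47% of the 10 other factors. HSF24 peaks, for example, overlapped the silk list in 2.12% of cases. P1 DAP peaks overlapped the protoplast list in 2.36% (MYB40 minus P1 -0.379 points, interval -0.692 to -0.0200). They overlapped the silk list in 2.49% (MYB40 minus P1 -0.385 points, interval -0.707 to -0.0156).

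At least 1 of the 8 lists of non-MYB factors on demethylated DNA marked 56.9% of MYB40 peaks (interval 55.7 to 58.0), against 48.2% of P1 peaks, 44.6% of MYB53 peaks, 53.3% of MYB100 peaks and 43.2% of HSF24 peaks. The excess over P1 was 8.68 points (interval 7.498 to 9.86). DOF23 marked 29.6% of MYB40 peaks and 23.4% of P1 peaks, and HSF24 marked 21.4% of MYB40 peaks and 14.5% of P1 peaks. CPP8, DOF3 and THX39 also marked more of the MYB40 peaks, at 24.7%, 18.6% and 6.29%, against 16.9%, 14.7% and 4.96% of P1 peaks. EREB122 ran the other way, with 3.37% of MYB40 peaks (interval 2.98 to 3.81) and 5.68% of P1 peaks (interval 5.53 to 5.84), as did NLP14 with 0.328% and 0.537%. WRKY38 marked 12.7% of MYB40 peaks (interval 11.95 to 13.47) and 11.7% of P1 peaks (interval 11.53 to 11.96). These intervals barely met and none was taken for the difference, so the WRKY38 shares are not shown to be alike. For EREB7, at 0.0273% and 0.0332%, the intervals overlapped. Counting all 10 other factors, 65.0% of the top bin and 64.9% of the bottom bin carried at least 1. Peaks on none of the 15 other lists numbered 401, and made up 1.97% of the top bin (interval 1.39 to 2.79) and 8.56% of the bottom bin (interval 7.38 to 9.92).

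The bins were spread over the chromosomes in similar shares. Peaks were found on all 10 chromosomes at 3.48 per megabase of span, with the highest density on chromosome 1 at 3.86 and the lowest on chromosome 4 at 3.09. Between 20.1% and 24.3% of the peaks of each chromosome belonged to the top bin, with chromosome 4 lowest and chromosome 10 highest. The interval of chromosome 10, 21.0 to 28.0, held the 21.4% of the whole list. The widest gap between bins in the share of a single chromosome was 2.74 points, on chromosome 3. The median score was 12.9 or 13 on every chromosome. The gradient was present on each: P1 marked 89.2% to 94.96% of the top bin and 63.6% to 73.9% of the bottom bin. MYB53 marked 50.8% to 63.7% of the top bin and 35.1% to 40.2% of the bottom bin, and MYB100 11.9% to 22.4% of the top and 2.41% to 8.39% of the bottom.

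**Figure D4:**
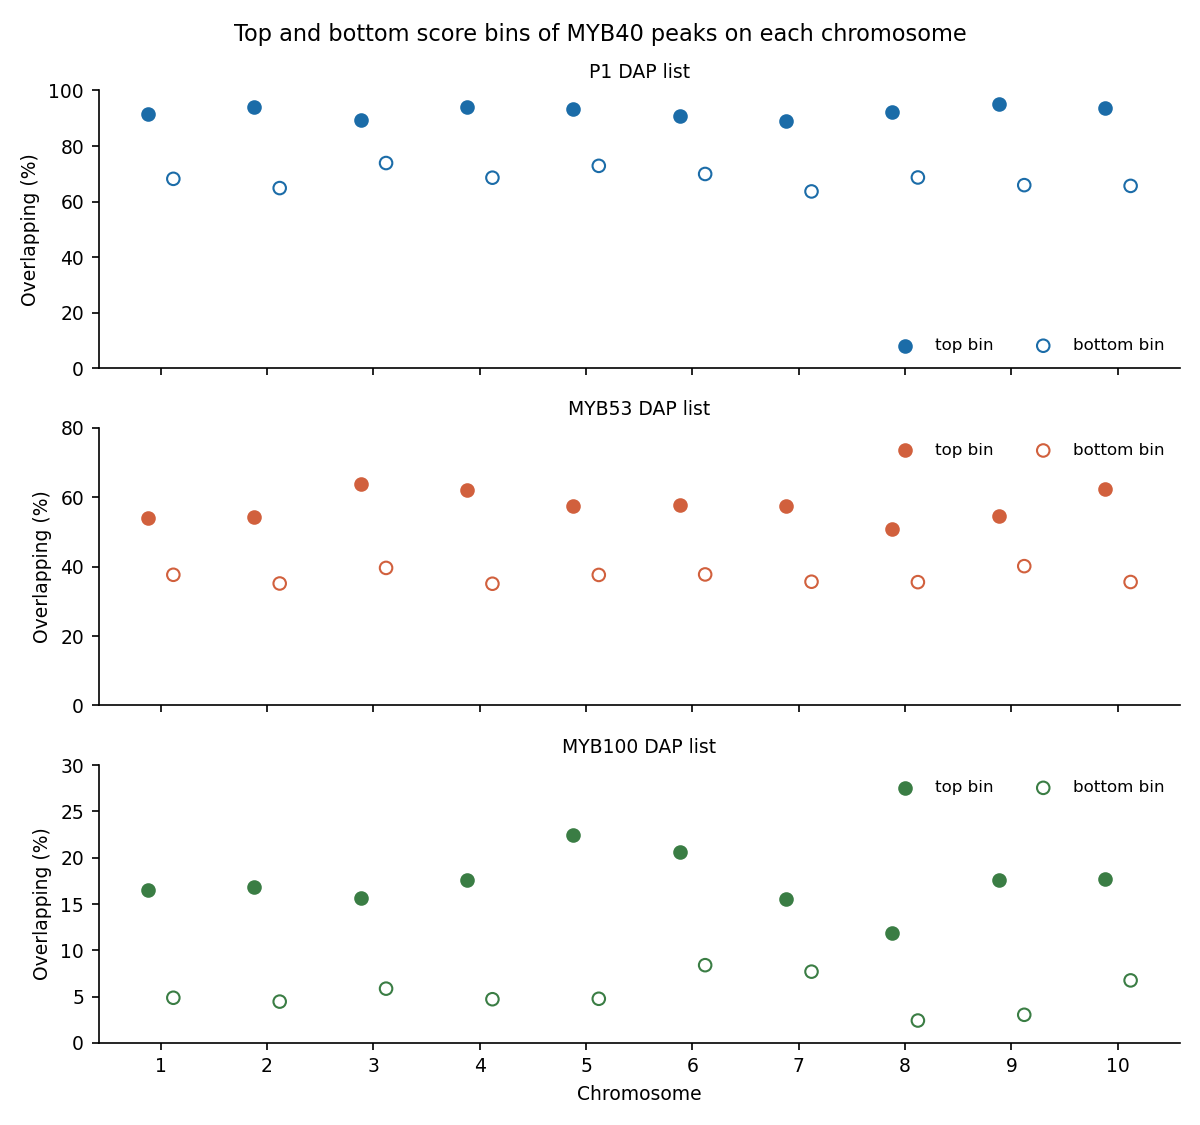
Share of MYB40 peaks (%, y axis) overlapping the P1, MYB53 and MYB100 lists on each chromosome (x axis), for the top score bin (filled) and the bottom bin (open). On all 10 chromosomes the filled point lies above the open one in each panel.

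Along the chromosomes MYB40 peaks thinned out towards the middle. When each chromosome was cut into 10 equal segments, segment 10 held 14.9% of the peaks and segment 4 held 4.63%. Maize genes are densest towards chromosome ends, and repeats towards the middle. The 2 outer segments together held 27.5% of MYB40 peaks (interval 26.5 to 28.5), against 26.0% of P1 and 24.4% of MYB53 peaks. For the methylated lists it was 25.2% of HSF24 and 22.7% of GBP20 peaks. The 4 middle segments held 28.8% of MYB40 peaks, 33.1% of HSF24 peaks and 31.9% of P1 peaks. MYB40 minus HSF24 was -4.34 points (interval -5.40 to -3.25), and MYB40 minus P1 was -3.09 points (interval -4.17 to -2.00). The protoplast ChIP list was more skewed still, with 33.1% in the outer segments, and the silk ChIP list was not, with 23.4%. By bin the outer segments held 28.0% of the top bin and 28.3% of the bottom bin (difference interval -3.34 to 2.68 points). The middle segments held 27.3% of the top bin (interval 25.2 to 29.6) and 30.1% of the bottom bin (interval 28.1 to 32.2). P1 overlap varied little along the way, from 76.2% in segment 10 to 81.9% in segment 6.

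**Figure D5:**
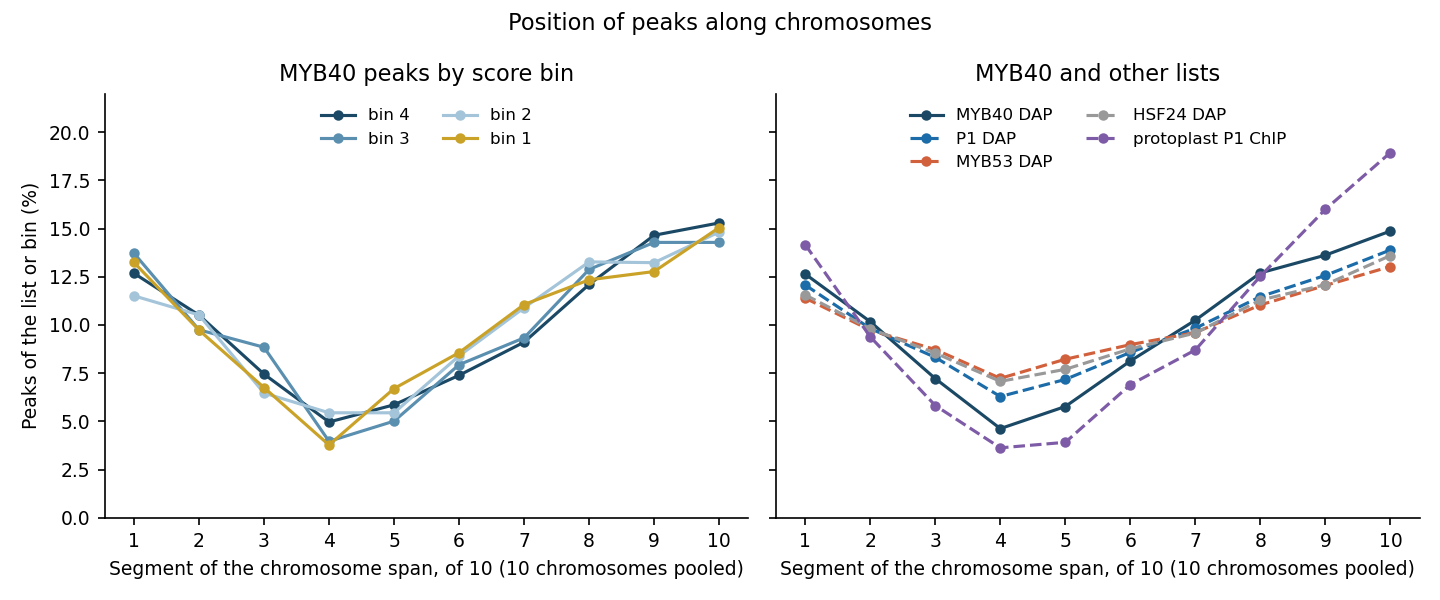
Share of peaks (%, y axis) in each of 10 segments of the chromosome span (x axis), for the 4 score bins of MYB40 (left) and for MYB40 and 4 other lists (right, 10 chromosomes pooled). The bins run together, and MYB40 holds 4.63% of its peaks in segment 4.

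Sites were mostly solitary. Neighbouring peaks were a median of 161095 bases apart, and joining peaks within 1000 bases left 7062 loci, of which 259 held more than 1 peak. Peaks in those loci belonged to the top bin in 22.9% of cases and single peaks in 21.3%.

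The highest-scoring sites are given in B73 RefGen_v4, the build named in the submitters' processing notes, and no gene is assigned to them. The first, chr1:193423818-193424017 with a score of 127, lay on the P1, MYB53, MYB100, HSF24 and GBP20 lists, with the P1 midpoint 42 bases and the MYB100 midpoint 5 bases away. Next came chr5:192378172-192378371 with 98, which lay on P1 and CPP8, and chr1:17352306-17352505 with 70.2, on all 3 other MYB lists and CPP8. The fourth was chr5:192381548-192381747 with 65, whose midpoint fell on that of a P1 peak, and the fifth chr5:149167916-149168115 with 55, on all 3 other MYB lists. None of these 5 lay on a ChIP list, where 3.76% of the whole top bin did.

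Sites on the P1 DAP list and a ChIP list had a median score of 13 in both tissues, the same as the whole list. The highest-scoring of them were chr3:43800743-43800942 with 37 and chr2:29541766-29541965 with 31, both in protoplasts, and chr4:236221606-236221805 with 29 in silk. Then followed chr3:137103098-137103297 with 27.2 in protoplasts and chr3:225309174-225309373 with 26.9 in silk. The ChIP midpoint of the second was 42.5 bases from that of MYB40, and the others were 147 to 232.5 bases away. The 8 sites under the most lists carried 8 of the 15 other lists each and scored modestly, with a median of 13.1. The highest of them was chr9:135705917-135706116 with 17, on P1, MYB53, MYB100, HSF24, DOF3, DOF23, WRKY38 and the protoplast ChIP list. After it came chr5:162292048-162292247 with 15.9, chr10:13524007-13524206 with 15.5, chr8:134705149-134705348 with 13.2 and chr2:218706362-218706561 with 13. All 5 were on P1, MYB53 and MYB100 together with DOF3, DOF23 and HSF24.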

How the data were processed

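The MYB40 sample gave a list of peak positions with 1 deposited score per peak; what scale the authors used for it is not stated in any label or header. The other 15 lists were used for positions alone. The submitters' processing notes list B73 RefGen_v4, Trimmomatic, Bowtie2 2.3.4.1 and HISAT2 2.0.4. Neither they nor the labels state the peak caller, its threshold, the depth or how replicates entered each list. Positions were read as BED intervals and are printed counting from 1.

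A peak counted as shared with a list if at least 1 base overlapped. Shares carry 95% Wilson intervals and differences of shares Newcombe intervals (statsmodels 0.14.6, Python 3.11.15), for counting error only. No test was run, since each list is 1 sample. Chromosome spans end at the last peak of any list. Overlap and distance functions were tested on simulated lists. Sites named are the 5 highest scores, the 5 highest on P1 DAP and a ChIP list, the 5 under most lists, the peaks on each side of a boundary and the chromosomes of extreme density. RNA-seq counts were not used, as the peak lists name no genes. The members, bins and lists were chosen with earlier results of these data known.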

Additional observations from a re-analysis of the deposited data

How the results depend on the processing

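Of 120 values of 11 results under 12 alternatives, 99 stayed within the interval of the reported value, 21 did not and 0 changed sign where the interval excluded 0. Of the 99, at least 32 could not change: 22 under limits on width or chromosome that removed no peak, and 10 shares of all peaks where only bins were redrawn. The top bin stayed above the bottom bin throughout, by 14.9 to 25.4 points for P1, 15.7 to 21.3 for MYB53 and 8.00 to 14.8 for MYB100. The ChIP differences ranged from -0.541 to -0.163 points in protoplasts and from -0.445 to 1.00 in silk. Requiring 50% of the shorter peak in common gave shares of 74.3% (P1), 37.0% (MYB53), 8.31% (MYB100), 1.60% (protoplast ChIP) and 1.32% (silk ChIP). Windows of 200 bases in all lists gave 1.67% for silk ChIP. They repeated the reported values exactly for MYB53, MYB100 and the outer segments, so they were no further check on those. Peaks above the median score gave 87.8% (P1), 51.5% (MYB53) and 13.5% (MYB100), with bins 14.9 points apart for P1 and 14.8 for MYB100. Ties moved to the higher bin left 513 peaks in the bottom bin and 15.7 points for MYB53. Of 4 alternatives chosen after seeing the data, midpoints within 50 bases gave 55.4% (P1), 29.2% (MYB53), 6.55% (MYB100), 0.901% (protoplast ChIP) and 0.423% (silk ChIP), with 18.5, 16.9 and 8.00 points for P1, MYB53 and MYB100. Whole scores alone gave 20.9 points for P1. Bins of equal size and leaving out the 4 peaks of the stretch on chromosome 5 moved none of the 11 results beyond their intervals. No paired analysis was possible because each list is 1 sample and no test was run. Depth is unknown, and ChIP differences under about 1 point are beyond these counts.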

Other observations

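A stretch of chromosome 5 held 4 of the highest MYB40 scores, a pattern noticed after the values were seen. Within 20 kb of the site scoring 98 lay 4 MYB40 peaks, with scores of 50, 52, 98 and 65 in order of position, where the chromosome average for that length was 0.139. All 4 were on the P1 list. The same stretch held 14 P1 peaks against an average of 1.63, 12 MYB53 peaks against 2.01, 11 HSF24 peaks against 2.07 and 13 DOF23 peaks against 3.61. CPP8 had 9 against 2.86, DOF3 7 against 2.27, EREB122 5 against 2.21, WRKY38 4 against 1.85 and MYB100 2 against 0.191. The stretch held 0 peaks of THX39, silk ChIP, protoplast ChIP, NLP14, GBP20 and EREB7, whose averages were 0.624, 0.370, 0.161, 0.0641, 0.0458 and 0.0409.

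Scores with a decimal were held by 1611 peaks and were the rule below 11, where 470 of 513 peaks had one. Among peaks scoring 12 to under 16, those with a decimal lay on MYB53 in 47.7% of cases (interval 43.8 to 51.7) and those with a whole score in 41.5% (interval 39.8 to 43.2). The decimal peaks of this class also scored higher, with a median of 13.6 against 13. MYB53 overlap was higher at higher scores, and whether that accounts for the gap was not tested. At 16 and above, the MYB53 shares were 64.1% with a decimal (interval 58.0 to 69.7) and 56.6% without (interval 53.8 to 59.4). The median scores there were 18.15 and 18. Under 12 the MYB53 shares were 38.1% with a decimal and 36.8% without, with overlapping intervals. For P1 the shares at 12 to under 16 were 81.3% with a decimal and 79.2% without, with overlapping intervals. What the decimal stands for is not given in the sources used here.

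P1 DAP peaks with a MYB40 peak lay on the HSF24 list in 23.5% of cases and P1 peaks without one in 13.8%, a difference of 9.72 points (interval 8.62 to 10.85). The MYB40 and HSF24 samples are both labelled as methylated, with reads of 150 and 50 nt, and the P1 sample as demethylated with reads of 50 nt. On another measure, all MYB40 peaks against all P1 peaks, HSF24 marked 21.4% and 14.5%. On that same measure CPP8, labelled as demethylated with reads of 50 nt, marked 24.7% and 16.9%.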
